A study of Cenchrus purpureus with 8 samples.

Results

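A set of 200 loci had no read in the young stem library of napiergrass entry BAGCE 5 and reads in every one of the 7 other entries sampled. They were found among 66981 assembled loci by summing the estimated reads of all transcripts of a locus, rounding the sum, and keeping loci with 0 reads in BAGCE 5 and no fewer than 10 in every other library. That criterion was met by 912 loci, and the 200 with the largest minimum over the 7 libraries were kept. These 200 loci are called the members here. The reads of all 8 libraries chose them, so the contrast between BAGCE 5 and the rest is a description and carries no test.

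The libraries come from the highest stem nodes of Cenchrus purpureus, also called elephant grass, and each was made from 1 entry of a germplasm bank. The high lignin entries were BAGCE 5, BAGCE 10, BAGCE 82 and Pioneiro, and the low lignin entries were BAGCE 7, BAGCE 32, BAGCE 96 and BAGCE 98. The only treatment in the labels is the lignin class, and they give no genotype, age or repeat of an entry, so what sets an entry apart and what varies between its plants cannot be told apart. Library totals ran from 14925391 to 17997520 reads. BAGCE 5 stood apart, with the largest total but at least 1 read at only 53653 loci, against 57602 to 60185 loci in the other 7 libraries.

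Napiergrass is an outcrossing polyploid grass, and part of its genome is closely related to that of pearl millet. Outcrossing grasses differ between individuals in which genes they carry and in which copies of a gene they transcribe. In the young stem of a grass, cells divide and lengthen before their walls thicken and lignify, and a whole stem piece mixes these stages. Fewer cells of a type and less RNA per cell cannot be told apart in such a sample. The files do not pair the identifiers with gene names, so the members are described by identifier and no function is assigned. For the same reason no marker of the stem could be checked.

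BAGCE 5 had far more loci of this kind than any other entry. The 912 loci were 2.76% of the 33075 loci that reached 10 reads in all 7 other libraries. The same criterion, applied to each other library, gave 190 loci for BAGCE 10, 98 for BAGCE 32, 90 for BAGCE 96 and 55 for BAGCE 98. It gave 21 for BAGCE 82, 20 for Pioneiro and 12 for BAGCE 7. Loci with 0 reads in BAGCE 5 and in 1 further library, and at least 10 reads in the remaining 6, numbered 132 with BAGCE 10, 37 with BAGCE 96, 26 with BAGCE 7 and 19 with Pioneiro. They numbered 17 with BAGCE 82, 15 with BAGCE 32 and 11 with BAGCE 98.

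The count thinned out as the minimum was raised. Of the 912 loci, 463 reached 20 reads in all 7 other libraries, 170 reached 50, 76 reached 100, 27 reached 200 and 3 reached 500. The last places among the 200 members went to MSTRG.56307, with 42 to 310 reads in the 7 libraries, and MSTRG.19649, with 41 to 486. The first loci left out were MSTRG.33506, with 41 to 319 reads, and MSTRG.42212, with 41 to 125. In all, 6 loci shared that minimum, and 1 was kept by its lower locus number.

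A count of 0 was set off from low counts in BAGCE 5. Among loci that reached 41 reads in all 7 other libraries, 205 had 0 reads in BAGCE 5, 9 had 1 read, 50 had 2 reads, 56 had 3 to 5 and 121 had 6 to 9. A further 868 had 10 to 40 reads and 18668 had 41 or more. Counts of 2 were thus more common than counts of 1, and 75.7% of all locus counts from 1 to 10 over the 8 libraries were even. The 2 mates of a read pair may therefore have been counted separately; the files do not say. A count of 0 allows up to 3 reads, or 0.168 CPM (counts scaled to a common library size with edgeR's TMM factors), in BAGCE 5. If mates were counted separately this limit is too low and the fold bounds built on it are too high. It covers counting error only. A 0 says that no read was assigned, and the files do not show whether the locus is in the genome of that entry.

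Every transcript of the members was empty in BAGCE 5, as a sum of 0 per locus requires. The 200 loci hold 482 transcripts, and by the choice of the members all 482 had 0 reads there. Of these transcripts, 425 reached 10 reads in all 7 other libraries, and 17 had 0 reads in at least 1 of them. One transcript was listed for 95 of the members (47.5%), 2 for 43 and 6 or more for 13. Among the 105 members with several transcripts, the same transcript had the most reads in all 7 libraries at 41, and the leading transcript differed between libraries at 64. Where a pair of transcripts of 1 member both reached 20 reads, 6.43% of the pairs had the same count after rounding. How many pairs would tie by chance was not tested, and whether a read is counted more than once in a sum per locus is not known.

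**Figure D1:**
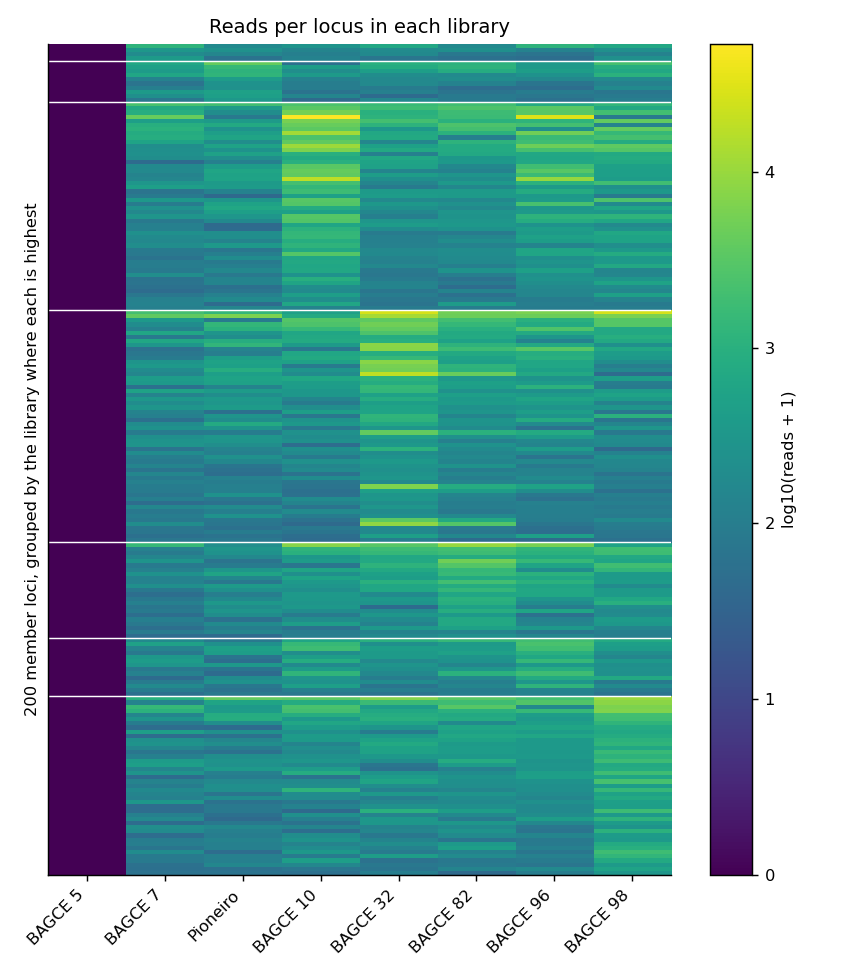
Reads of the 200 member loci (rows) in the 8 libraries (columns), as log10(reads + 1). White lines separate members by the library of highest TMM-scaled level. BAGCE 5 is at 0 throughout by the choice of the members, and the blocks highest in BAGCE 32, BAGCE 10 and BAGCE 98, with 56, 50 and 43 members, are the largest.

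The members with the largest minimum were abundant stem loci outside BAGCE 5. MSTRG.41853, whose longest transcript has 876 bases, had 0 reads in BAGCE 5, against 1013 in BAGCE 7, 3882 in Pioneiro, 3457 in BAGCE 10, 7072 in BAGCE 32, 3328 in BAGCE 82, 2130 in BAGCE 96 and 10237 in BAGCE 98. Its median over these 7 libraries was 517 TPM (the authors' abundance per length and depth, summed over its transcripts). The median CPM lay at least 1265-fold above the 3 reads that a count of 0 allows in BAGCE 5. This was the only one of the 200 to reach 1000 reads in all 7 libraries.

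MSTRG.5095, with a longest transcript of 3585 bases, was more even. It had 0 reads in BAGCE 5, against 2214 in BAGCE 7, 1920 in Pioneiro, 2443 in BAGCE 10, 1512 in BAGCE 32, 1930 in BAGCE 82, 773 in BAGCE 96 and 1276 in BAGCE 98. BAGCE 96 was its lowest library and BAGCE 7 was among the higher ones. MSTRG.8873, of 1009 bases, had 0 reads in BAGCE 5, against 3728 in BAGCE 7, 6241 in Pioneiro, 731 in BAGCE 10, 12539 in BAGCE 32, 4634 in BAGCE 82, 4545 in BAGCE 96 and 6039 in BAGCE 98. Here BAGCE 10 was lowest and BAGCE 32 highest.

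Other abundant members differed widely between the entries that had them. MSTRG.263, of 1284 bases, had 0 reads in BAGCE 5, against 2105 in BAGCE 7, 1324 in Pioneiro, 481 in BAGCE 10, 26019 in BAGCE 32, 5050 in BAGCE 82, 6012 in BAGCE 96 and 26178 in BAGCE 98. Its highest CPM was 55.6 times its lowest, BAGCE 32 and BAGCE 98 being far above the rest. MSTRG.12417, of 2047 bases, had 0 reads in BAGCE 5, against 814 in BAGCE 7, 448 in Pioneiro, 11611 in BAGCE 10, 695 in BAGCE 32, 1060 in BAGCE 82, 5013 in BAGCE 96 and 1502 in BAGCE 98. It was highest in BAGCE 10, the lowest library of MSTRG.263.

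Over the 200 members, the median of the 7 libraries ran from 58 to 5050 reads, with a median over members of 279. On the scale of the 3 reads allowed by a 0 in BAGCE 5, the median CPM of the other 7 lay at least 19.0-fold to 1919-fold above it, with a median bound of 102-fold. The lowest of the 7 libraries alone lay at least 12.3-fold above it in each member, with a median bound of 29.5-fold. These bounds describe how the members were chosen. Together the members took 0% of the reads of BAGCE 5, 0.329% of those of BAGCE 7 and 0.395% of those of Pioneiro. They took 1.38% in BAGCE 10, 1.33% in BAGCE 32, 0.871% in BAGCE 82, 1.03% in BAGCE 96 and 1.25% in BAGCE 98. Single members weighed on these sums, MSTRG.433 making up 21.8% of the member reads in BAGCE 10 and 17.1% in BAGCE 96.

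For the properties that follow, the members are set beside 19772 comparison loci. These had reads in BAGCE 5 and also reached 41 reads in all 7 other libraries. Members and comparison loci were thus held to one read minimum in the 7 libraries and differed in the library that defined them. Per length, the members were about as abundant as the comparison loci. The median over loci of the 7-library median was 15.9 TPM in members, with quartiles at 8.81 and 33.7 TPM, and 13.2 TPM in comparison loci, with quartiles at 6.93 and 28.3 TPM.

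The level of the members depended on the entry. In BAGCE 7 their median was 7.95 TPM, against 13.1 TPM in comparison loci, and in Pioneiro it was 11.0 TPM, against 16.6 TPM. In the other 5 libraries the members lay above the comparison loci. Their median was 17.2 TPM, against 12.2 TPM in comparison loci, in BAGCE 10, and 18.0 TPM, against 11.4 TPM, in BAGCE 32. It was 18.4 TPM, against 13.8 TPM, in BAGCE 82, 21.2 TPM, against 12.3 TPM, in BAGCE 96, and 25.02 TPM, against 15.1 TPM, in BAGCE 98. The ratio of the medians, members over comparison loci, was 0.605 in BAGCE 7 and 0.66 in Pioneiro, and between 1.33 and 1.73 in the 5 others.

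**Figure D2:**
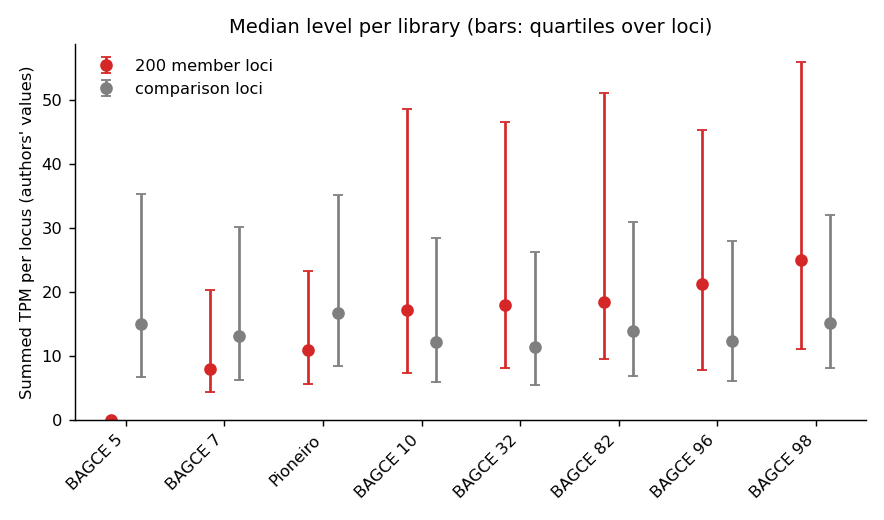
Median summed TPM per locus in each library for the 200 member loci (red) and the 19772 comparison loci (grey), with bars from the lower to the upper quartile over loci. The members sit below the comparison loci in BAGCE 7 and Pioneiro, at 7.95 and 11.0 TPM, and above them in the 5 libraries to the right.

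BAGCE 7 and Pioneiro are the libraries that resemble BAGCE 5 most. Spearman's rho of CPM with BAGCE 5, over the 19772 comparison loci, was 0.788 for BAGCE 7 and 0.787 for Pioneiro, and 0.546 to 0.657 for the 5 others. They were picked for that in these data, so they form no group and were not tested as one. Relative to the median CPM of BAGCE 10, 32, 82, 96 and 98, a member stood at a median of 0.472 in BAGCE 7, with quartiles at 0.28 and 0.895. The same ratio had a median of 1.06 in comparison loci. In Pioneiro the median ratio was 0.466 in members, with quartiles at 0.224 and 0.908, and 1.02 in comparison loci.

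Low levels in these 2 entries were common but not general among the members. BAGCE 7 lay below the median of the 5 libraries in 158 of 200 members (79%), against 45.8% of comparison loci. Pioneiro lay below it in 157 members (78.5%), against 48.6% of comparison loci. Both lay below it in 136 members (68%), against 29.7% of comparison loci, and neither did in 21. Under 0.25 times the median of the 5 libraries there were 46 members in BAGCE 7 (23%), against 1.37% of comparison loci. In Pioneiro 58 members (29%) were under it, against 2.65% of comparison loci. The ratio exceeded 4 in 2 members for each of the 2 libraries.

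By rank the picture was similar. BAGCE 7 was the lowest of the 7 libraries in 52 members (26%), where the share was 14.1% among comparison loci and 15.2% among the 33075 loci that reached 10 reads. Pioneiro was the lowest in 58 members (29%), against 13.6% of comparison loci and 13.7% of the 33075. They were the lowest pair in 54 members (27%), against 8.36% of comparison loci. The highest library was BAGCE 32 in 56 members (28%), against 16.4% of comparison loci, BAGCE 10 in 50 (25%), against 17.2%, and BAGCE 98 in 43 (21.5%), against 13.7%. It was BAGCE 82 in 23 members (11.5%), against 9.19% of comparison loci, and BAGCE 96 in 14 (7%), against 6.16%, both near the comparison share. It was Pioneiro in 10 members (5%), against 19.1% of comparison loci, and BAGCE 7 in 4 (2%), against 18.2%. With reads scaled to the library total alone, without TMM factors, BAGCE 7 was lowest in 66 members, against 18.6% of comparison loci, and Pioneiro in 41, against 8.08% of comparison loci.

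**Figure D3:**
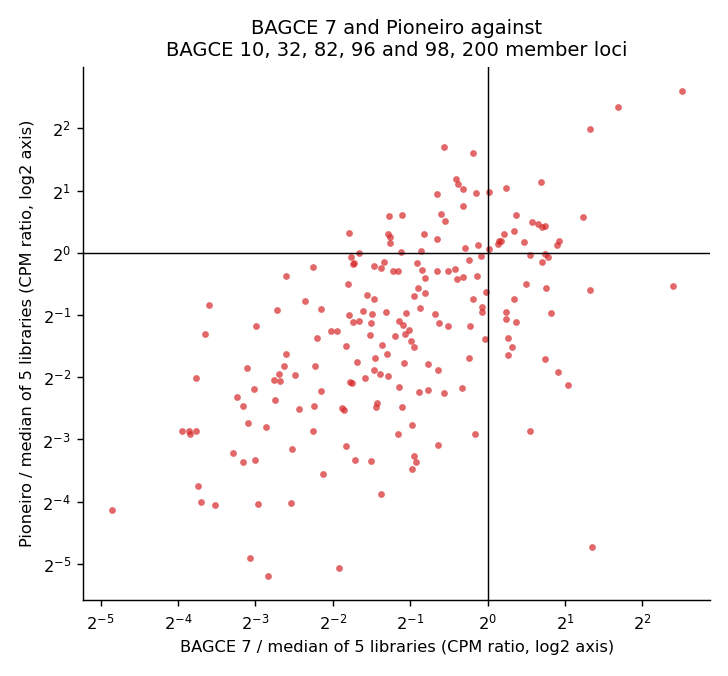
Each of the 200 member loci by its CPM in BAGCE 7 (horizontal) and in Pioneiro (vertical), each divided by the median CPM of BAGCE 10, 32, 82, 96 and 98, on log2 axes. Most points, 136 of 200, lie in the lower left, below 1 on both axes, and 21 lie at or above 1 on both.

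The extremes show how far single members departed from this. The lowest ratios in BAGCE 7 belonged to MSTRG.27201 (0.0346) and MSTRG.62961 (0.0649). MSTRG.27201, of 749 bases, had 60 reads in BAGCE 7 and 128 in Pioneiro, against 77 in BAGCE 10, 7757 in BAGCE 32, 1770 in BAGCE 82, 3124 in BAGCE 96 and 679 in BAGCE 98. BAGCE 10 was as low there as the 2 entries. MSTRG.62961, of 1374 bases, had 92 reads in BAGCE 7 and 254 in Pioneiro, against 994, 1412, 1778, 1034 and 1839 in BAGCE 10, 32, 82, 96 and 98. In this case both entries lay apart from all 5 others.

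Pioneiro was lowest relative to the 5 at MSTRG.21864 (0.0274) and MSTRG.30743 (0.0298). MSTRG.21864, of 2581 bases, had 362 reads in BAGCE 7 and 92 in Pioneiro, against 2873, 3600, 1968, 992 and 3066 in BAGCE 10, 32, 82, 96 and 98. Both entries again lay under all 5 others. MSTRG.30743, of 2927 bases, had 1458 reads in BAGCE 7 and 214 in Pioneiro, against 7409, 3133, 9967, 5841 and 520 in BAGCE 10, 32, 82, 96 and 98. BAGCE 98 was also low at this locus.

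A few members went the other way. MSTRG.21508, of 1293 bases, had the highest ratio in both entries, 5.7 in BAGCE 7 and 6.08 in Pioneiro. It had 369 reads in BAGCE 7 and 510 in Pioneiro, against 63, 116, 66, 94 and 71 in BAGCE 10, 32, 82, 96 and 98, and 0 in BAGCE 5. MSTRG.58063, of 2820 bases, followed in Pioneiro at a ratio of 5.09, with 469 reads there and 228 in BAGCE 7, against 140, 44, 87, 75 and 84 in the same 5 libraries. These 2 loci were thus high in the entries that most resemble BAGCE 5 and had no read in BAGCE 5 itself. MSTRG.503, of 1354 bases, was high in BAGCE 7 alone of the 2, at a ratio of 5.26, with 370 reads there and 63 in Pioneiro, against 123, 70, 56, 51 and 235 in the same 5 libraries.

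The members also varied more among the 7 entries that had reads than the comparison loci did. The coefficient of variation of CPM over the 7 libraries had a median of 0.775 in members, with quartiles at 0.573 and 1.05, and 0.39 in comparison loci, with quartiles at 0.277 and 0.553. It lay above the comparison median in 182 of 200 members. The highest library exceeded the lowest by a median of 10.2-fold in members and 3.08-fold in comparison loci. More than 10-fold separated them in 102 members (51%), against 7.7% of comparison loci, and less than 3-fold in 15 members, against 48.3% of comparison loci. Over BAGCE 10, 32, 82, 96 and 98 alone the median coefficient of variation was 0.682 in members and 0.351 in comparison loci. These shares and medians are descriptions with no test.

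At the steady end stood MSTRG.62359, of 1367 bases, with 0 reads in BAGCE 5, against 114 in BAGCE 7, 149 in Pioneiro, 132 in BAGCE 10, 90 in BAGCE 32, 101 in BAGCE 82, 95 in BAGCE 96 and 101 in BAGCE 98. Its coefficient of variation was 0.157, so its level was nearly the same wherever it was found. MSTRG.35761, of 2231 bases, was next at 0.217, with 74 to 141 reads in the 7 libraries and a median of 111. At the other end, MSTRG.54632, of 865 bases, had a coefficient of variation of 2.02. It had 94 reads in BAGCE 7, 116 in Pioneiro, 64 in BAGCE 10, 6452 in BAGCE 32, 862 in BAGCE 82, 535 in BAGCE 96 and 108 in BAGCE 98. BAGCE 32 alone carried most of its reads.

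MSTRG.17328, of 803 bases and with 11 transcripts, had a coefficient of variation of 2.0 and the same leading library. It had 150 reads in BAGCE 7, 463 in Pioneiro, 194 in BAGCE 10, 19257 in BAGCE 32, 4253 in BAGCE 82, 705 in BAGCE 96 and 45 in BAGCE 98. The widest ratio of highest to lowest library, 847-fold, was at MSTRG.433, a locus of 13 transcripts named after its values were seen. It had 4186 reads in BAGCE 7, 80 in Pioneiro, 53525 in BAGCE 10, 1150 in BAGCE 32, 1672 in BAGCE 82, 30035 in BAGCE 96 and 80 in BAGCE 98. BAGCE 10 and BAGCE 96 were its high libraries, as at MSTRG.12417.

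Pairs of entries ranked the members differently. Spearman's rho of CPM between 2 of the 7 libraries, over the 200 members, ran from 0.162 for BAGCE 10 and BAGCE 32 to 0.692 for BAGCE 32 and BAGCE 82. BAGCE 10 and BAGCE 96 reached 0.664, and BAGCE 7 and Pioneiro 0.519, the highest value for either of those entries. Over the comparison loci the same coefficient ran from 0.63 to 0.88. The values are across loci, which are not independent, the libraries share one read minimum, and the comparison loci span a wider range of levels, so they are given as a description.

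Members were somewhat shorter than comparison loci. The longest transcript of a member had a median of 1498.5 bases, with quartiles at 1187 and 2195 bases, and that of a comparison locus had a median of 1786 bases, with quartiles at 1261 and 2481 bases. All 66981 loci had a median of 1171 bases. Over 3000 bases there were 13 members (6.5%), against 14.7% of comparison loci, while 163 members (81.5%) exceeded 1000 bases, against 86.2% of comparison loci. Longer transcripts collect more reads, and both sets were held to the same minimum of reads. The longest members were MSTRG.41450, at 4599 bases, and MSTRG.41306, at 4024 bases.

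MSTRG.41450 had 0 reads in BAGCE 5, against 128 in BAGCE 7, 540 in Pioneiro, 3818 in BAGCE 10, 433 in BAGCE 32, 288 in BAGCE 82, 1662 in BAGCE 96 and 459 in BAGCE 98. MSTRG.41306 had 56 to 487 reads in the 7 libraries, with a median of 121. In reads, BAGCE 98 was highest at this locus and BAGCE 10 at MSTRG.41450, while in CPM BAGCE 10 was highest at both. The shortest members were MSTRG.43750, at 360 bases, with 64 to 645 reads and a median of 331, and MSTRG.30253, at 373 bases, with 49 to 220 reads and a median of 110. Transcripts per locus had a median of 2 in members and in comparison loci, and 6 or more were listed for 6.5% of members and 4.48% of comparison loci.

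Most members stood alone in the order of locus numbers. The number in an identifier may follow the order of loci along the assembly, which the files do not state. Of the 200, 24 (12%) had another member within 5 numbers, in 8 runs of 2 members and 2 runs of 4, and 176 had none. The median gap between members was 219 numbers and the largest was 2220. Counting every locus that met the read criterion, 48 of the 200 members had another such locus within 5 numbers. The same counts were not made for other sets of loci. These shares alone therefore do not tell whether members lie closer together than loci at large.

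Neighbours of members were more often at 0 in BAGCE 5 than loci at large, and the share fell with distance. The neighbours counted reached 10 reads in all 7 other libraries. At a distance of 1 number 24 of 207 had 0 reads in BAGCE 5 (11.6%), and at 2 to 5 numbers 52 of 813 (6.4%). At 6 to 10 numbers it was 52 of 1032 (5.04%), at 11 to 50 numbers 257 of 7720 (3.33%), and at 51 to 200 numbers 822 of 29428 (2.79%). Among all loci with that minimum the share was 2.76%. A locus near several members was counted once for each. This is a description with no test, since the members were chosen by the same reads.

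Even next to a member, most loci were read in BAGCE 5. Counting each locus once, 181 of 204 such neighbours at a distance of 1 had reads there, 170 of them at least 10. Their CPM in BAGCE 5 over the median of the other 7 libraries had a median of 0.88, with quartiles at 0.515 and 1.39. Over all loci with the same minimum and reads in BAGCE 5 that median was 0.991, with quartiles at 0.563 and 1.61. At 97 of the 200 members, and so not at most of them, the loci on both sides, whatever their level elsewhere, had reads in BAGCE 5. At large, 53653 of all 66981 loci had reads there. How often both sides of any locus had reads was not counted.

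**Figure D4:**
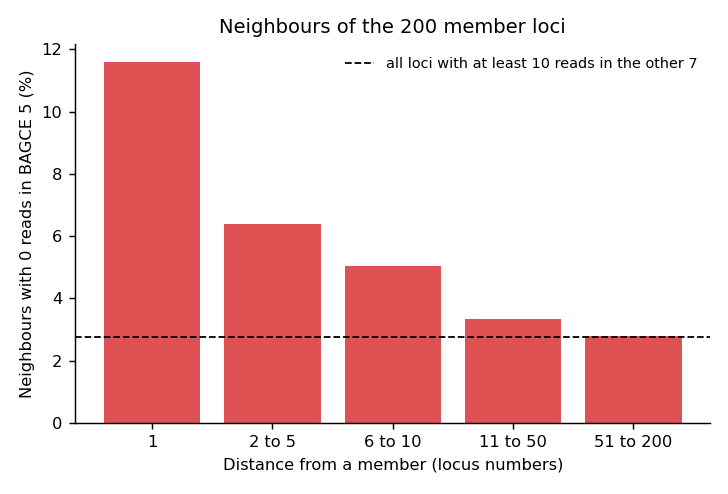
Share of neighbouring loci with 0 reads in BAGCE 5 (vertical, percent) by distance in locus numbers from a member (horizontal), among neighbours that reached 10 reads in all 7 other libraries. The bars fall from 11.6% at 1 number to 2.79% at 51 to 200 numbers, close to the dashed line at 2.76% for all loci with that minimum.

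The first run of 4 members lay at numbers 28329 to 28336. MSTRG.28329, of 1278 bases, had 0 reads in BAGCE 5, against 294 in BAGCE 7, 300 in Pioneiro, 3034 in BAGCE 10, 109 in BAGCE 32, 268 in BAGCE 82, 1137 in BAGCE 96 and 1170 in BAGCE 98. MSTRG.28334, of 1268 bases, had 81 to 687 reads in the 7 libraries, with a median of 159. MSTRG.28335, of 1266 bases, had 153 to 481 reads with a median of 320, and MSTRG.28336, of 1470 bases, had 129 to 542 reads with a median of 383. BAGCE 10 was highest at the first 3, in reads and in CPM. At the last, BAGCE 98 was highest in reads and BAGCE 32 in CPM (32.6, against 29.9 in BAGCE 98). By either scale the 4 neighbours did not share one highest library.

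The loci between these members were not all empty in BAGCE 5. MSTRG.28330 had 305 reads in BAGCE 5, against 0 to 112 in the other 7 libraries, so it was higher in BAGCE 5 than anywhere else. MSTRG.28331 had 138 reads in BAGCE 5, against 99 to 386 in the others, and MSTRG.28333 had 2, against 11 to 158. Just past the run, MSTRG.28337 had 1145 reads in BAGCE 5, against 86 to 1182 in the others. Loci with and without reads in BAGCE 5 thus alternated in this stretch of numbers.

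The second run of 4 lay at numbers 40321 to 40328 and was more solid. MSTRG.40321, of 1290 bases, had 0 reads in BAGCE 5, against 225 in BAGCE 7, 373 in Pioneiro, 290 in BAGCE 10, 616 in BAGCE 32, 798 in BAGCE 82, 588 in BAGCE 96 and 191 in BAGCE 98. MSTRG.40322, of 1348 bases, had 44 to 497 reads in the 7 libraries with a median of 206. MSTRG.40325, of 2900 bases, had 80 to 977 reads with a median of 381, and MSTRG.40328, of 1879 bases, had 53 to 517 with a median of 144. The loci numbered between them that met the read minimum elsewhere, MSTRG.40326 and MSTRG.40327, also had 0 reads in BAGCE 5 and missed the 200 by their minima of 16 and 11 reads.

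With these 2 loci the stretch held 6 loci of the kind in 8 consecutive numbers, the longest run of all 912. The remaining pair inside it, MSTRG.40323 and MSTRG.40324, had at most 43 and 11 reads in any of the 7 libraries, and 0 and 2 in BAGCE 5. On its sides MSTRG.40320 had 79 reads in BAGCE 5, against 37 to 146 in the others, and MSTRG.40329 had 46, against 40 to 158. BAGCE 7 was lowest at MSTRG.40325 and MSTRG.40328, with 80 and 53 reads, BAGCE 32 at MSTRG.40322 and BAGCE 98 at MSTRG.40321.

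**Figure D5:**
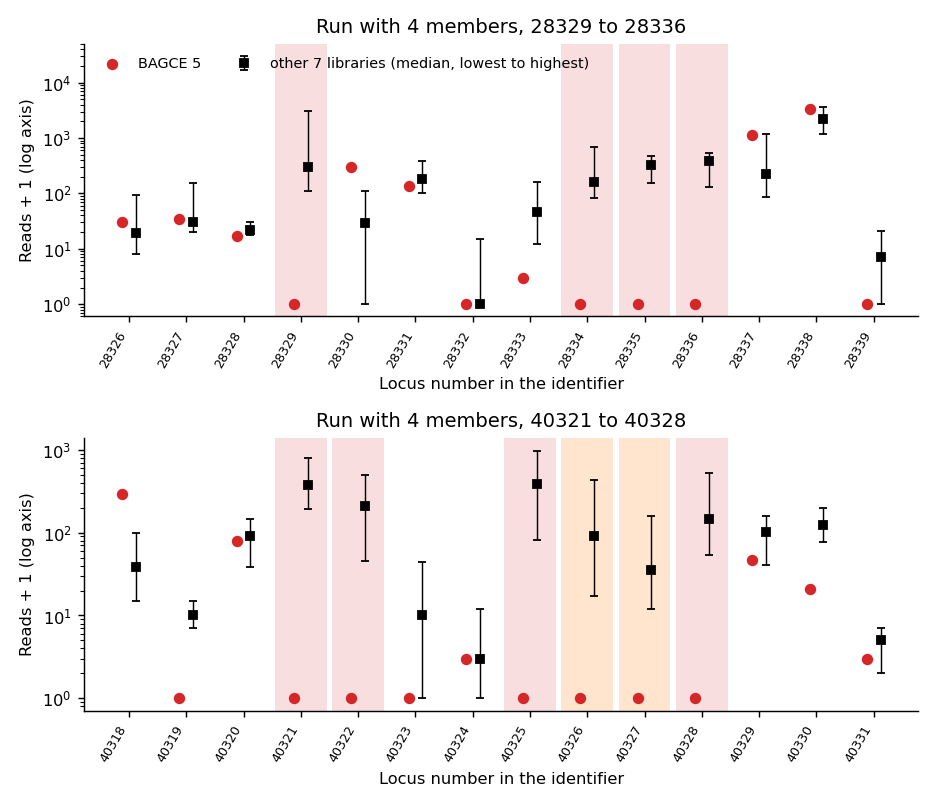
Reads plus 1 (log axis) at each locus number in and beside the 2 runs of 4 members, with BAGCE 5 in red and the median of the other 7 libraries in black with bars from the lowest to the highest. Red bands mark members and orange bands loci that met the criterion below the 200 kept. In the upper panel MSTRG.28330, between members, had 305 reads in BAGCE 5, and in the lower panel all 6 banded loci were at 0.

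Among the runs of 2, MSTRG.261 and MSTRG.263 were the most abundant. MSTRG.261, of 1395 bases, had 0 reads in BAGCE 5, against 132 in BAGCE 7, 578 in Pioneiro, 794 in BAGCE 10, 1684 in BAGCE 32, 1837 in BAGCE 82, 2843 in BAGCE 96 and 7984 in BAGCE 98. Both loci were high in BAGCE 98, but BAGCE 32 was high at MSTRG.263 alone. MSTRG.262, between them, had 0 reads in BAGCE 5 and 0 to 55 in the other 7 libraries. MSTRG.264, on the far side of MSTRG.263, had 291 reads in BAGCE 5, against 130 to 563 in the others.

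The loci of other pairs sometimes moved together across entries, as their values showed once seen. MSTRG.30253 and MSTRG.30254, of 373 and 507 bases, have consecutive numbers. They had 49 and 64 reads in BAGCE 7, 58 and 56 in Pioneiro, 136 and 186 in BAGCE 10, 220 and 239 in BAGCE 32, 99 and 98 in BAGCE 82, 119 and 130 in BAGCE 96, and 110 and 131 in BAGCE 98. Both were lowest in BAGCE 7 and Pioneiro and highest in BAGCE 32. MSTRG.22898 and MSTRG.22900, of 574 and 1306 bases, had 82 and 119 reads in BAGCE 7, 203 and 304 in Pioneiro, 720 and 568 in BAGCE 10, 855 and 719 in BAGCE 32, 792 and 1431 in BAGCE 82, 302 and 197 in BAGCE 96, and 930 and 1297 in BAGCE 98. MSTRG.22899, between them, had 20 reads in BAGCE 5, against 7 to 43 in the others.

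The loci of another pair had little in common beyond BAGCE 5. MSTRG.31282, of 1318 bases, was highest in Pioneiro with 1265 reads, while MSTRG.31284, of 812 bases, was highest in BAGCE 32 with 3930 and lowest in BAGCE 7 with 121. MSTRG.10726, of 957 bases, had 227 to 6167 reads in the 7 libraries, and MSTRG.10728, of 815 bases, had 85 to 1328, both highest in BAGCE 10. MSTRG.10727, between them, was well read in BAGCE 5, with 195 reads, but below the 1155 to 3136 reads of the others. The 3 remaining pairs, at numbers 44087 and 44089, 46342 and 46345, and 53728 and 53729, had 59 to 963 reads per library.

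The series asks which genes go with lignin, and for that contrast BAGCE 5 was left out, since its reads chose the members. The other 7 libraries entered the choice through their minimum, so loci absent or very low in any of them were not among the members. That left 3 high lignin libraries (BAGCE 10, BAGCE 82 and Pioneiro) and 4 low lignin libraries. No member differed between the lignin groups past the threshold. With edgeR's quasi-likelihood test over 49346 loci, 0 of the 200 members passed a Benjamini-Hochberg adjusted p of 0.05, and the background was 0% of all loci. The smallest adjusted p was 0.9999 among members and 0.851 among all loci. The spread between libraries was wide, with a common coefficient of variation of 0.72 in this fit. With 3 against 4 libraries, real differences can go uncalled, so the 0 does not show that members were equal in both groups. At an unadjusted p under 0.05 there were 4 members higher in high lignin, where the background was 0.486%, and 6 lower, where it was 0.843%.

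The count of these 10 members moved both ways with single entries. It was 5 without BAGCE 10 (951 of 52373 loci tested), 7 without Pioneiro (967 of 52081), 6 without BAGCE 32 (371 of 47717) and 4 without BAGCE 98 (629 of 47417). Leaving out BAGCE 82 gave 10 (1628 of 52746), BAGCE 7 gave 12 (1164 of 47832) and BAGCE 96 gave 14 (777 of 47638). The brackets count all loci at that unadjusted p, against 656 of 49346 with all 7 libraries. The background thus moved with single entries too. The log2 fold change, high over low lignin, was above 0 in 87 members and below 0 in 113, with a median of -0.15, against 0.01 over all loci tested. That median was -0.52 without BAGCE 10, -0.36 without BAGCE 82 and -0.28 without BAGCE 7, and it turned to 0.11 without BAGCE 32, 0.06 without Pioneiro and 0.01 without BAGCE 98. The sign of the median thus depended on single entries.

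Groups did not overlap at 3 members, which were chosen after their values were seen. All 3 were lower in high lignin, where the background of such loci was 1.11%, and none was higher, where it was 0.973%. MSTRG.59925, of 2081 bases and 11 transcripts, stood at 17.0 CPM in BAGCE 10, 10.7 in BAGCE 82 and 8.59 in Pioneiro, against 77.0 in BAGCE 7, 45.5 in BAGCE 32, 70.0 in BAGCE 96 and 37.5 in BAGCE 98. Its log2 fold change was -2.25 (SE 0.45), with an adjusted p of 0.9999 in edgeR and 0.99998 in limma-voom. DESeq2 gave it an adjusted p of 0.00528 and called it alone among the members, where its background was 0.0709% of all loci. BAGCE 98 was the lowest low lignin library at this locus and still above BAGCE 10, the highest of the high lignin libraries.

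MSTRG.195, of 2034 bases, stood at 7.19 CPM in BAGCE 10, 5.94 in BAGCE 82 and 2.16 in Pioneiro, against 10.7 in BAGCE 7, 20.7 in BAGCE 32, 26.2 in BAGCE 96 and 64.04 in BAGCE 98. Its log2 fold change was -2.58 (SE 0.73; edgeR adjusted p = 0.9999), and -1.92 without BAGCE 98. MSTRG.56307, of 2513 bases, stood at 3.44 CPM in BAGCE 10, 2.68 in BAGCE 82 and 3.12 in Pioneiro, against 3.85 in BAGCE 7, 6.81 in BAGCE 32, 6.17 in BAGCE 96 and 17.1 in BAGCE 98. Its log2 fold change was -1.46 (SE 0.58; edgeR adjusted p = 0.9999), and -0.89 without BAGCE 98. That library was the highest at both loci.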

How the data were processed

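Stranded poly(A)-selected libraries of young stem were sequenced from 8 entries, 1 library each, per the labels' protocols. Per the submitters' processing notes STAR 2.5.2b, Salmon 0.7.2, StringTie 2.0.4 and FastQC 0.11.8 were used. The genome build, like the role of each tool and the handling of shared reads, is not given in the sources used here. Per the file headers, the authors deposited for each of 101169 transcripts its length and effective length (other, in bases), its abundance in TPM and an estimated count of reads. The deposited estimated counts were whole within 0.001 reads in 99.97% of cases. Counts were summed per locus (the identifier without its last number) and rounded. The members and lists were chosen with earlier results of these data known.

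CPM used TMM factors over all 8 libraries. The lignin contrast used edgeR 4.0.16 (R 4.3.3), its quasi-likelihood test, two-sided, with TMM factors and filterByExpr over 7 libraries; all 200 members passed the filter. Replicates are entries, numbered only as names, so p-values measure the spread between these libraries. Within lignin groups, pairs of all 8 libraries differed by a chi-square per degree of freedom of 77.7 to 173, and pairs of the 7 libraries in the contrast by 77.7 to 136. The fit was tested on simulated data. Alternatives were DESeq2 1.42.0, limma 3.58.1 (voom), RLE scaling, no filter, single transcripts, all 8 libraries, each library left out, other read minima, thinning to 14925391 reads and other distances. A limit of 2 reads in BAGCE 5, spread over 5 libraries and ranks by TPM were added after seeing the data. Named loci were the 5 with the largest minimum, those at the limit of the 200, the 3 longest runs (of the runs of 2, the one with the lowest number), and the extremes of length, of spread and of the level in BAGCE 7 and Pioneiro.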

Additional observations from a re-analysis of the deposited data

Results flagged for a closer look

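Among the 4 low lignin libraries, 1 library lay far from the other 3 in 6 of the 32 groups of values tested. Chance flags about 1 in 20 if values are normally distributed, which was not checked for these CPM values. The count is thus a description, and an excess over that rate was not tested. BAGCE 32 was the high one at MSTRG.8873 (821 CPM), MSTRG.54632 (422 CPM) and MSTRG.17328 (1260 CPM). BAGCE 96 was the high one at MSTRG.12417 (309.5 CPM) and MSTRG.28334 (30.5 CPM). BAGCE 7 was the high one at MSTRG.58063 (14.9 CPM), a member also high in Pioneiro. MSTRG.54632 and MSTRG.17328 were named for their wide spread, so a distant library there follows from how they were chosen.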

How the results depend on the processing

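No paired analysis was possible because the labels carry no number that ties an entry of one lignin group to an entry of the other. The number of loci at 0 in BAGCE 5 alone was 1516 if 5 reads sufficed and 463 if 20 were asked for, as the criterion itself sets, and ran from 957 to 1141 with 1 of the other 7 libraries left out, since 1 condition fewer applies. It was 967 and 1247 with up to 1 and 2 reads allowed, 822 after thinning, 787 with the most abundant transcript of each locus and 1181 for single transcripts. Of the 200 members, 198 met the criterion on their most abundant transcript. In the lignin contrast edgeR called 0 loci under every alternative, with libraries left out too (lowest 0, highest 0), and limma-voom called 0, with 505 at an unadjusted p under 0.05 against 656 in edgeR. DESeq2 called 35 loci, 1 of them a member, with 1250 at an unadjusted p under 0.05; it gave no adjusted p for 12 members, and the cause of the difference was not tested. The members' median log2 fold change ran from -0.52 to 0.11 with libraries left out. Members with another within 1 number were 9, and 174 of the 912 loci had another within 5, as more loci are counted. Among the 912, BAGCE 7 was lowest of 7 in 264 (28.9%) and Pioneiro in 269 (29.5%). By the authors' TPM, BAGCE 7 was lowest in 64 members (32%), against 17.3% of comparison loci, and Pioneiro in 40 (20%), against 6.79%. Median length was 1494.5 bases by the leading transcript and 1467.5 over the 912 loci.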

Other observations

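Loci below the 200 kept added to the runs. Of the 912 loci, 174 (19.1%) had another within 5 numbers, in 77 runs, of which 13 held 3 or more loci and 46 loci in all. The longest stretches without a gap held 4 loci, at numbers 221 to 224 and, within the second run, at numbers 40325 to 40328. All loci of both were at 0 reads in BAGCE 5. MSTRG.223, the member at numbers 221 to 224, had 280 reads in BAGCE 7, 113 in Pioneiro, 843 in BAGCE 10, 270 in BAGCE 32, 199 in BAGCE 82, 438 in BAGCE 96 and 1800 in BAGCE 98. MSTRG.222 reached 4594 reads in BAGCE 96 and 3880 in BAGCE 10, but had 19 in Pioneiro, which kept it out of the 200. MSTRG.221 had 36 to 524 reads in the 7 libraries and MSTRG.224 had 25 to 217. These runs were named after their values were seen.

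Members were spread over the whole range of locus numbers. Split into 10 equal stretches of numbers, the members per stretch ran from 6 (3%), at numbers 33491 to 40188, to 32 (16%), at numbers 26793 to 33490. The comparison loci ran from 8.27% to 11.2% per stretch, and these 2 neighbouring stretches held 10.1% and 11.2% of them. Over all 912 loci the share of loci with at least 10 reads elsewhere that were at 0 in BAGCE 5 ran from 2.09% to 3.35% per stretch, with 2.36% and 3.25% in those 2, so the contrast was weaker there.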
